A study of Mus musculus with 3 samples.

Results

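The Rab GTPases of mouse macrophages were examined as a family of 59 protein-coding genes. The members were all genes with a symbol made of Rab, a number and at most 1 letter with a further number, and with a protein-coding transcript. They are 59 of 55536 annotated genes in all and of 22028 protein-coding genes. The RNA was polyadenylated RNA of C57BL/6J macrophages grown from bone marrow. The cells were first exposed to lipid A at 100 ng/ml over 12 h, kept 12 h after it was washed out, and exposed again at 100 ng/ml over 480 min. Toll-like receptor 4 senses lipid A, the membrane anchor of bacterial lipopolysaccharide. Where the labels describe the treatment in words they give lipid A, as here, and where they code it they give lipoprotein A. The 3 libraries carry this 1 treatment and form 1 group (biological replicates 1, 2 and 3), so no effect of the stimulation can be given. Age and sex were not recorded, and the labels give 1 donor record without saying whether the replicates came from separate animals. The spread between libraries may therefore be technical.

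Rab GTPases are small switches that bind membranes in their GTP form and recruit tethers, motors and lipid kinases. Each member sits on its own set of compartments, so that the series of Rabs on a vesicle marks its path. In macrophages a new phagosome is known to pass from Rab5 to Rab7 as it matures and fuses with lysosomes, and Rabs of the Golgi and of recycling endosomes carry cytokines and receptors to the cell surface. Exchange factors load them with GTP and GTPase-activating proteins of the TBC family switch them off. GDI proteins take the GDP form out of the membrane, which requires lipid groups on cysteines near the end of the protein.

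The coding ends of several members are shown because the family attaches to membranes there and because the paralogues discussed below differ there. Each line gives the last 45 coding bases on the sense strand, stop codon included, from GENCODE M21 on mm10, with cysteine codons in capitals.
Rab7: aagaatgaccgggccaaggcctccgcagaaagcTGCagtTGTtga
Rab7b: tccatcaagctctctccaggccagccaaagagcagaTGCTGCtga
Rab5a: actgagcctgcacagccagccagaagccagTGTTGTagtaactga
Rab5b: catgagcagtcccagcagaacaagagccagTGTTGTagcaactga
Rab5c: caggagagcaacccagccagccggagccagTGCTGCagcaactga
Rab8a: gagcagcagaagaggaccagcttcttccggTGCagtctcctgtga
Rab8b: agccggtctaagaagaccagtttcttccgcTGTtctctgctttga
Rab4a: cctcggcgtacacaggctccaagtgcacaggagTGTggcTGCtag
Rab4b: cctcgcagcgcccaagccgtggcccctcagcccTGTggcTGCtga
Rab32: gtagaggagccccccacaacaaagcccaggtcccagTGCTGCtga
Rab38: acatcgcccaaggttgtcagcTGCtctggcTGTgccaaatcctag
Among the last 5 codons before the stop, 50 of the 59 members carry 2 or more cysteine codons and 9 carry 1. Rab8a and Rab8b belong to the 9 with 1 cysteine codon and a short tail behind it. The genes lie at chr6:87999106-88045270 (Rab7, minus strand), chr1:131688695-131715439 (Rab7b, plus), chr17:53479234-53507680 (Rab5a, plus), chr10:128677175-128696264 (Rab5b, minus) and chr11:100715009-100738215 (Rab5c, minus). Rab8a lies at chr8:72161200-72183904 (plus), Rab8b at chr9:66843664-66919687 (minus), Rab4a at chr8:123805985-123835287 (plus) and Rab4b at chr7:27168424-27178896 (minus). Rab32 lies at chr10:10545002-10558265 (minus) and Rab38 at chr7:88430273-88491572 (plus). Coding sequences of the family ran from 585 to 2922 bases with the stop codon (median 648).

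Expected counts totalled 24596382, 54016971 and 43127749 in replicates 1, 2 and 3, of which the Rab family took 0.451%, 0.617% and 0.496%. Replicate 2 stood apart: mitochondrial mRNA took 6.86% of its counts, against 1.06% and 1.13% in replicates 1 and 3. All 10 macrophage markers were at 1 TPM or more in every library, led by Lyz2, Fcer1g and Cd68, and their sum was 21303, 18952 and 22096 TPM. TPM is transcript abundance per length, scaled to the same sum in each library. Neutrophil markers summed to 4.04, 22.2 and 5.49 TPM in replicates 1, 2 and 3. S100a9 (1.83, 9.64 and 2.61 TPM), S100a8 (1.27, 6.91 and 2.45 TPM) and Ngp (0.06, 4.97 and 0.07 TPM) were highest in replicate 2. Camp was lowest there (0.70, 0.18 and 0.27 TPM). Ltf, Mpo and Elane were at 0.34 TPM or less and Ly6g at 0 TPM in each library. Cd4 was at 113 TPM in replicate 2, against 20.0 and 33.6 TPM, while Cd3e was at 0.19 TPM or less and Cd79a had 0 counts in each library. Cd79b was at 1.59, 1.76 and 3.22 TPM. Dendritic cell markers summed to 1.46 TPM or less and mast cell and basophil markers to 0.56 TPM or less. Kdr of the endothelial list (35.2, 7.90 and 23.8 TPM) and Acp5 of the osteoclast list (30.3, 18.2 and 42.2 TPM) were the other markers above 10 TPM. Cdh5 of the endothelial list was at 0.36, 5.82 and 0.45 TPM and Pecam1 at 2.20, 2.49 and 2.85 TPM. The part of these differences in the Rab values below was not tested.

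Most of the family was transcribed in these cells. At least 1 TPM in all 3 libraries was reached by 39 of the 59 members (66.1%), beside 42.9% of protein-coding genes. A mean of 10 TPM was reached by 30 members, beside 28.5% of protein-coding genes, and a mean of 100 TPM by 10 members, beside 5.7%. The members summed to 3125, 4213 and 3327 TPM, and the 10 most abundant held 67.4% of the mean sum. These 10 were, in order of mean, Rab7, Rab8a, Rab5c, Rab10, Rab11a, Rab1a, Rab14, Rab8b, Rab7b and Rab32. The ranges of neighbours in this order overlapped throughout. Within each library Rab7 lay above Rab8a and Rab11a above Rab1a, while the order of the other neighbours changed between libraries. The second place of Rab8a rested on replicate 2 and on a non-coding transcript: without replicate 2 its mean was 141 TPM, and its coding transcript averaged 49.2 TPM. By role, all 6 early endosomal members were at 1 TPM or more in all libraries, as were 5 of 8 of recycling endosomes, 5 of 6 of late endosomes and lysosomes, 7 of 8 of phagosomes and lysosome-related organelles, and 7 of 10 of the endoplasmic reticulum and Golgi. Of the post-Golgi and regulated secretion members 6 of 13 reached it, and of the members with other or less settled roles 3 of 8. The median over members of log2(mean TPM + 1) was 5.89 for early endosomes and 5.88 for late endosomes, and 1.05 for secretion. Over all members it was 3.98, against 0.37 for all protein-coding genes. Over the 42 members at a mean of 1 TPM it was 5.72, against 4.10 for the 10003 protein-coding genes at that level.

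**Figure D1:**
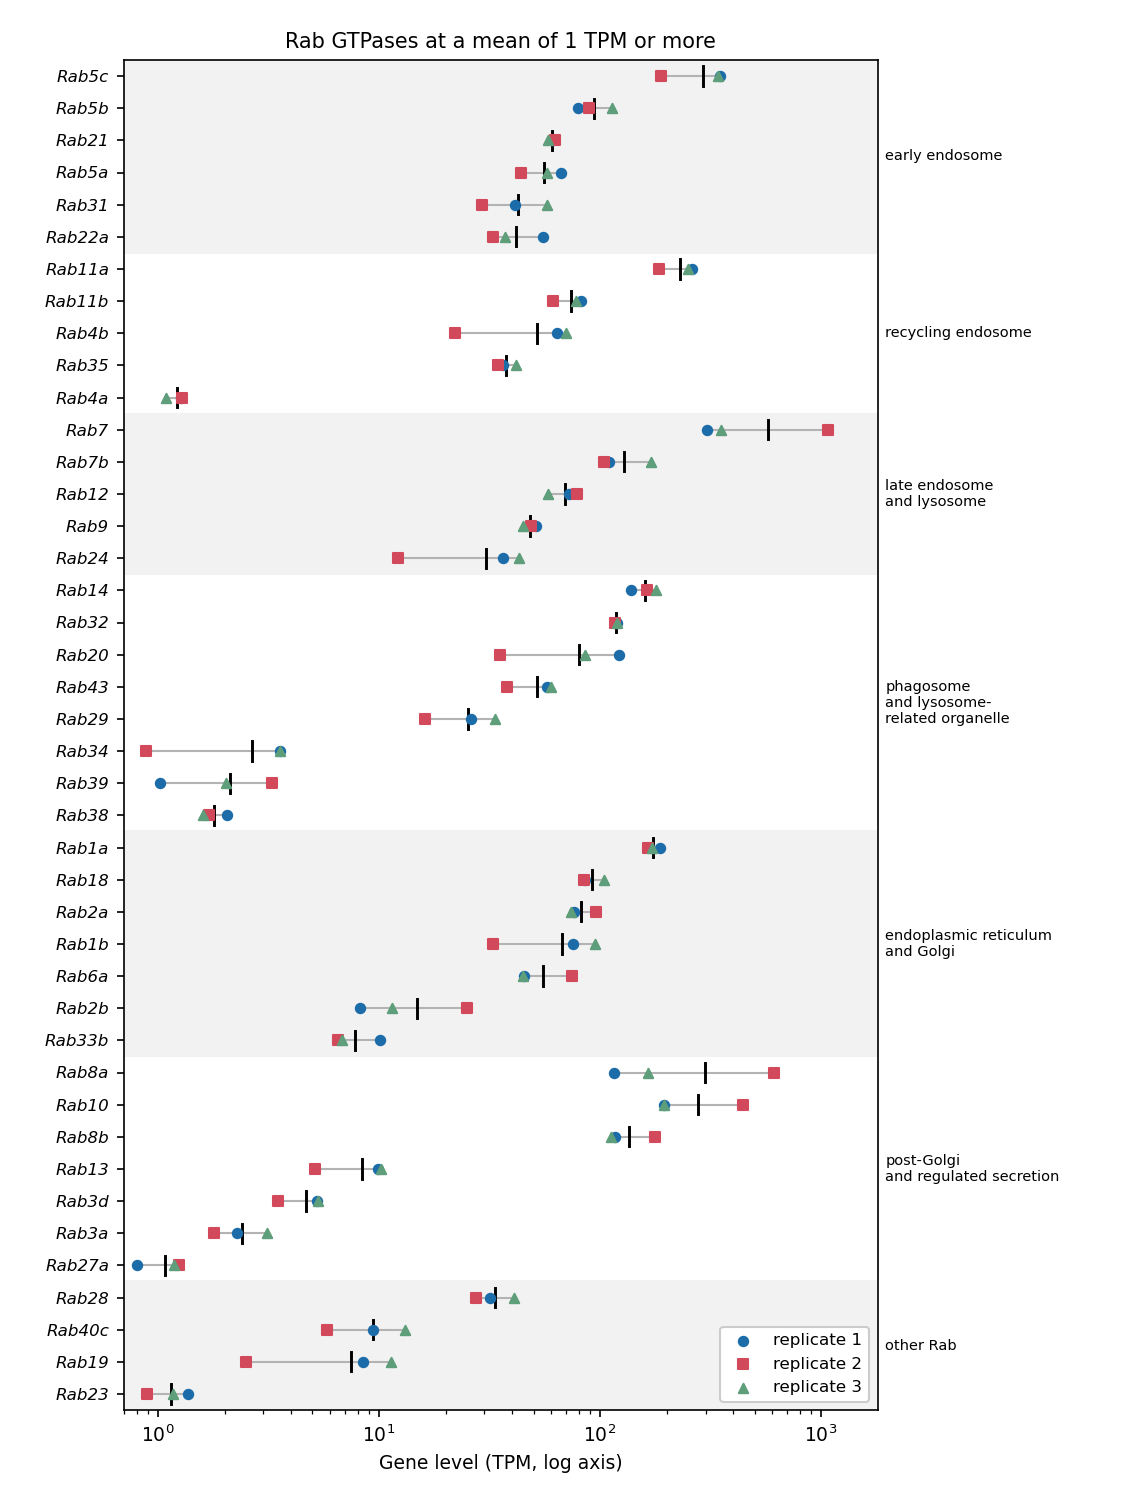
Gene level in TPM (log axis, first of 2 quantifications) of the 42 Rab genes at a mean of 1 TPM or more, grouped by role. Coloured symbols are the 3 libraries, the grey line is their range and the black bar their mean. Replicate 2 is the rightmost point of Rab7, Rab8a and Rab10 and the leftmost of Rab20, Rab4b, Rab24 and Rab1b, while the points of Rab32, Rab21 and Rab9 nearly coincide.

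At early endosomes Rab5c had the most transcript of the Rab5 genes, whose proteins drive fusion of early endosomes and of young phagosomes. Rab5c was at 349, 189 and 342 TPM in replicates 1, 2 and 3 (mean 293 ± 90.1, SD, n = 3). Rab5b was at 79.1, 89.1 and 113 TPM and Rab5a at 66.4, 43.8 and 57.7 TPM. The lowest Rab5c value therefore lay above the highest of both other Rab5 genes, although Rab5c was lowest in replicate 2. Rab21, which acts in integrin endocytosis, was among the steadiest members at 61.5, 62.4 and 57.9 TPM in the first of 2 quantifications. The second gave it 41.9, 65.7 and 52.4 TPM (53.3 ± 11.9). Rab31 (41.1, 29.3 and 57.7 TPM) and Rab22a (55.4, 32.9 and 37.1 TPM), both relatives of Rab5 that act between early endosomes and the Golgi, overlapped in their ranges.

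At recycling endosomes Rab11a led. This Rab of the pericentriolar recycling compartment, which in macrophages serves surface delivery of cytokines and receptors, was at 259, 184 and 249 TPM (231 ± 40.7). On average 51.2% of that value was assigned to Rab11a-201, a transcript of 595 bases with 466 annotated coding bases, at 142, 91.4 and 123 TPM. Rab11a-208, of 2336 bases with 648 coding bases, was at 44.6, 32.8 and 43.3 TPM. Its paralogue Rab11b was at 82.4, 61.3 and 77.9 TPM, of which Rab11b-203 held 56.2, 33.7 and 50.2 TPM. Rab11b-203, with 579 coding bases, thus stood above Rab11a-208 in each library. Rab11b-201, with 654 coding bases, was at 5.82, 9.54 and 5.86 TPM, under Rab11a-208 in each. The gene value of Rab11a stood above that of Rab11b. Rab35, a plasma membrane Rab of fast recycling and of actin at phagocytic cups, was at 36.4, 34.5 and 41.7 TPM. Its protein-coding transcripts held 36.4, 20.2 and 39.4 TPM of these values. Fast recycling also runs through Rab4, of which Rab4b was at 63.8, 22 and 70.2 TPM and Rab4a at 1.27, 1.28 and 1.09 TPM. Rab4b was lower in replicate 2 than in both other libraries and still stood above Rab4a in each. Rab15 was at 0.27 TPM or less, and Rab25 and Rab17, both known from epithelial cells, had 0 counts in each library, and a limit of 3 counts corresponds to 0.329 and 0.205 TPM in replicate 1, where it is highest (counting error only).

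Among late endosomal and lysosomal members Rab7, the Rab of endosome and phagosome fusion with lysosomes, was the most abundant of the family by its mean. Rab7 was at 306, 1074 and 353 TPM (578 ± 430). Its mean rested on replicate 2, and without that library it was 330 TPM, under the 345 TPM of Rab5c, which was also the higher of both in replicate 1. Rab7b, a late endosomal and Golgi Rab reported to lower Toll-like receptor signalling, was at 110, 105 and 170 TPM, so Rab7 lay above it in each library. Rab9, which returns mannose 6-phosphate receptors from late endosomes to the Golgi, was at 51.4, 48.7 and 45 TPM, while its paralogue Rab9b had 0 counts. Rab12, which directs transferrin receptor to lysosomes and is a substrate of the kinase LRRK2, was at 72.1, 78.3 and 58.2 TPM. Rab24, linked to autophagy, was at 36.5, 12.3 and 42.9 TPM and was lowest in replicate 2.

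Of the phagosomal members and those of lysosome-related organelles Rab14 and Rab32 were the most abundant. Rab14, a Rab of early phagosomes and of Golgi to endosome traffic, was at 137, 163 and 179 TPM (160 ± 21.2). Rab32, which builds lysosome-related organelles and limits intracellular bacteria, was at 120, 117 and 119 TPM (118 ± 1.33), the smallest relative spread of the 42 members at a mean of 1 TPM in the first quantification. The second quantification gave it 80.4, 120 and 103 TPM (101 ± 19.6). Its paralogue Rab38 was at 2.05, 1.70 and 1.60 TPM. Rab20, an interferon-inducible Rab of maturing phagosomes, was at 122, 35.2 and 85.2 TPM, and its value in replicate 2 was well under both others. Rab43, which has been placed at the Golgi and at phagosomes, was at 57.5, 37.8 and 59.9 TPM. Rab29, a lysosomal and Golgi partner of LRRK2, was at 26, 16.1 and 33.4 TPM. Rab34 and Rab39, both linked to phagosome maturation, were low at 3.57, 0.88 and 3.56 TPM and at 1.02, 3.29 and 2.03 TPM.

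Between the endoplasmic reticulum and the Golgi, Rab1a led. It tethers transport vesicles that leave the endoplasmic reticulum and was at 186, 165 and 172 TPM (174 ± 10.9). Rab1b was at 75.5, 32.8 and 94.4 TPM. Rab18, a Rab of lipid droplets and of the endoplasmic reticulum, was at 85.5, 84.7 and 105 TPM. Rab2a of the intermediate compartment was at 75.9, 95.6 and 73.6 TPM and Rab2b at 8.18, 24.9 and 11.4 TPM. Rab6a, the main Golgi Rab for retrograde and outgoing carriers, was at 45.5, 74.8 and 44.8 TPM, and Rab6b, which is known from neurons, at 0.20, 0.43 and 0.22 TPM. Rab33b, a Golgi Rab that binds the autophagy protein Atg16l1, was at 10.1, 6.54 and 6.83 TPM, while Rab33a had 5 counts, all in replicate 3. In the first quantification these members as a group had nearly the same sum in each library (487, 485 and 508 TPM). Single members moved in opposite ways in it, with Rab1b lowest and Rab2a, Rab2b and Rab6a highest in replicate 2. The second quantification gave Rab1a 160, 172 and 175 TPM, Rab18 66.3, 86.6 and 106 TPM and Rab2a 51.8, 95.5 and 63.7 TPM. It gave Rab6a 32.0, 75.6 and 40.5 TPM. These 4 were lowest in replicate 1 there, and Rab1b was lowest in replicate 2 (52.1, 38.4 and 86.8 TPM). Rab30, a Golgi Rab, was at 0.31 TPM or less.

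On the secretory side transcripts were concentrated in 3 members. Rab10, which carries vesicles from the Golgi and recycling endosomes to the plasma membrane, including Toll-like receptor 4, was at 194, 444 and 195 TPM (278 ± 144). Its values in replicates 1 and 3 were alike and that in replicate 2 was the highest. Rab8a, a Rab of exocytosis, of the cilium and of macrophage ruffles, was at 116, 615 and 165 TPM by gene, and Rab8b at 117, 178 and 112 TPM. The gene value of Rab8a is taken apart by transcript below. All other secretory members lay under 11 TPM in each library. Rab13 of tight junctions was at 9.89, 5.15 and 10.2 TPM. Of the exocytic Rab3 group, Rab3d was at 5.23, 3.50 and 5.29 TPM and Rab3a at 2.27, 1.79 and 3.12 TPM. Rab3b had 1 count in all 3 libraries together and Rab3c had 0. Rab27a, the Rab of lytic granules and melanosomes, was at 0.80, 1.24 and 1.18 TPM. Rab27b had 26 counts in the first quantification, all in replicate 2, while the second gave it 0.196, 0.455 and 0.276 TPM. Rab37, known from mast cell and insulin granules, reached 0.69 TPM and Rab26 0.29 TPM at most.

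Of the members with other roles, Rab28, a Rab of cilia, was the most abundant at 31.9, 27.6 and 40.9 TPM. Rab40c, whose protein joins a Cullin5 ubiquitin ligase, was at 9.42, 5.79 and 13.1 TPM, Rab19 at 8.43, 2.50 and 11.4 TPM and Rab23, which acts on Hedgehog signalling, at 1.37, 0.89 and 1.17 TPM. In all, 17 members had a mean under 1 TPM and none of these exceeded a mean of 0.43 TPM. Of the 17, 12 had at least 1 count and 5 had 0 counts in each library (Rab25, Rab17, Rab40b, Rab3c and Rab9b). By counting error only, 0 counts in replicate 1 allowed Rab40b up to 0.348 TPM and Rab3c up to 0.0617 TPM. These limits belong to the first quantification, and the second gave Rab40b 0.184, 0 and 0 TPM. The second gave Rab3c 0.0407, 0.111 and 0.0248 TPM, which in replicate 2 lay above the limit of 0.0249 TPM there.

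Which paralogue was used was asked for 18 pairs, as the log2 ratio of TPM + 0.1 within each library. A pair was called separated where the sign was the same in all 3 libraries and the mean was over 3 SD. With 3 libraries an exact two-sided sign-flip test cannot go below p = 0.25, so no p is given. Of the 18 pairs 13 were separated, with the first-named gene higher in 10 (Rab2a over Rab2b, for example) and the second in 3. Which gene was named first was set with the list of pairs (Rab5c and Rab3d stand first, for example), so this split is not a result. The Rab5 pairs share genes, and pairs of other families were not examined. Rab5c exceeded Rab5a by a mean log2 ratio of 2.35 ± 0.23 (SD, n = 3) and Rab5b by 1.61 ± 0.53. Rab11a exceeded Rab11b by 1.64 ± 0.05, Rab2a exceeded Rab2b by 2.60 ± 0.63 and Rab3d exceeded Rab3a by 0.95 ± 0.21. From CPM (counts scaled to the library total and not divided by length) the ratio of Rab11a to Rab11b was 0.32 ± 0.18 and that of Rab5c to Rab5b 0.80 ± 0.53, and both lost the call. Without replicate 3 the ratio of Rab5c to Rab5b was 1.61 ± 0.74 and that of Rab2a to Rab2b 2.57 ± 0.89, and these calls were lost too. Rab6a stood above Rab6b by 7.17 ± 0.06 and Rab32 above Rab38 by 5.98 ± 0.17. The b form was the higher in Rab4, where the ratio of Rab4a to Rab4b was -5.14 ± 1.00. In the other 5 separated pairs 1 partner was at or under 3 counts in at least 1 library (Rab9b, Rab27b, Rab33a, Rab39b and Rab40b), so their log2 ratios depend on the added 0.1. The ratio of Rab27a to Rab27b was 3.13 ± 0.57, and 1.33 ± 0.33 with the second quantification. Rab9 was at least 1086-fold higher than Rab9b, taken against the limit of 3 counts per library in the library where that ratio was lowest.

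In 3 pairs the sign was the same in each library without separation. Rab1a exceeded Rab1b (1.5 ± 0.75) and Rab7 exceeded Rab7b (1.97 ± 1.23), and the largest ratio of both pairs was in replicate 2. Without replicate 2 they were 1.08 ± 0.31 and 1.27 ± 0.30 and met the rule. Rab5a lay under Rab5b at -0.75 ± 0.43, and without replicate 1 at -1.0 ± 0.04, which met the rule. In 2 pairs the sign changed between libraries: Rab22a against Rab31 (0.43, 0.17 and -0.64) and Rab8a against Rab8b (-0.02, 1.79 and 0.57). Paralogues of the 18 pairs were 60.0% to 78.5% identical over their aligned coding bases, and at most 0.286% of the 31-base words of the first gene's most abundant transcript occurred in its partner.

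**Figure D2:**
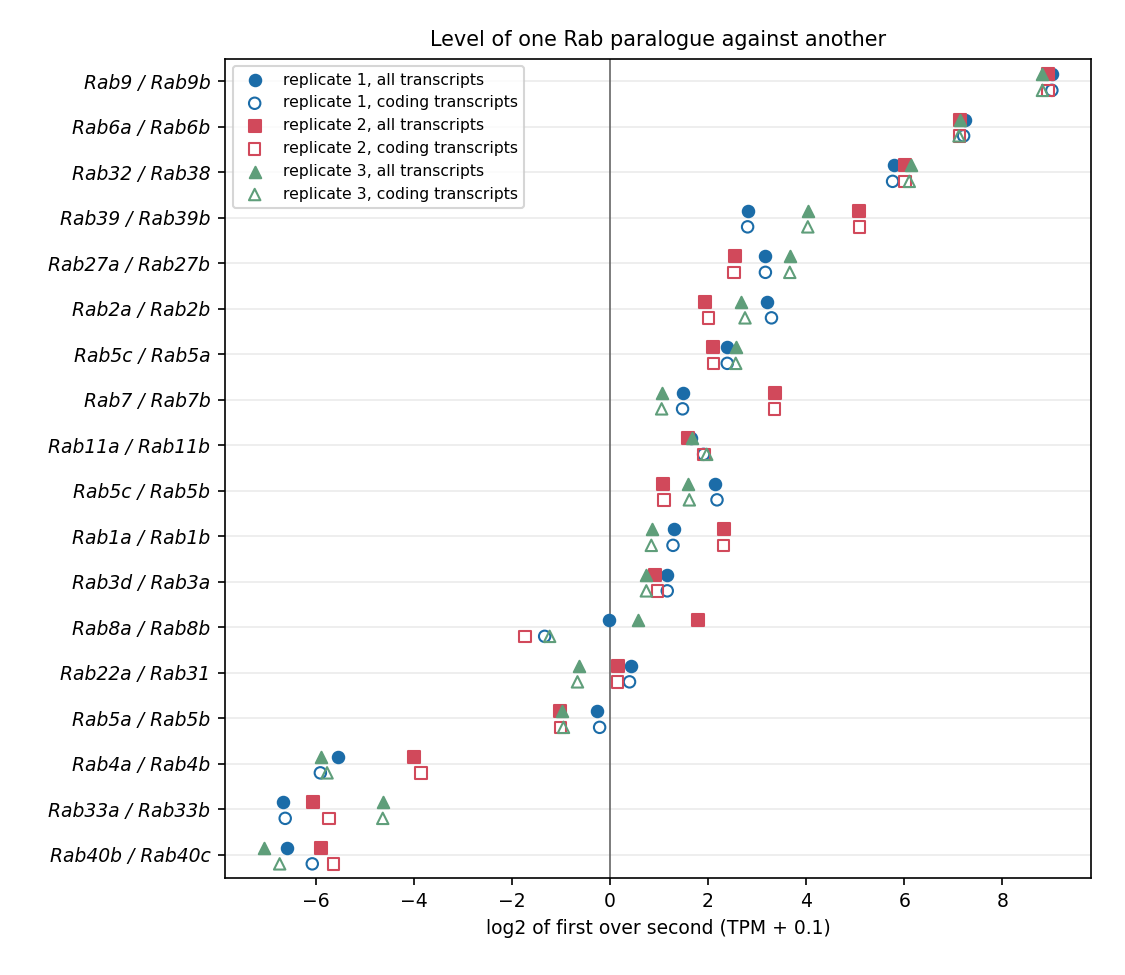
Log2 ratio of the first to the second gene of 18 Rab pairs in each library, from TPM + 0.1, with filled symbols for all transcripts and open symbols for protein-coding transcripts. Points right of 0 mean that the first-named gene was higher. Filled and open symbols nearly coincide in most pairs, but for Rab8a / Rab8b the filled symbols lie between -0.02 and 1.79 and the open ones between -1.73 and -1.23.

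For Rab8 the answer turned on which transcripts were counted, an alternative chosen after the values had been seen. The gene value of Rab8a was mostly Rab8a-202, a transcript of 542 bases that GENCODE annotates as a retained intron with no coding sequence. Rab8a-202 was at 68.5, 560 and 116 TPM, which was 59.2%, 91.2% and 70.0% of the gene. The coding transcript Rab8a-201, of 4550 bases, was at 46.5, 53.4 and 47.6 TPM (49.2 ± 3.72). In this quantification the 5.31-fold range of the gene lay mostly in Rab8a-202. The second quantification gave Rab8a-201 30.5, 53.7 and 40.3 TPM. With protein-coding transcripts only, Rab8a lay under Rab8b in each library (log2 ratios -1.33, -1.73 and -1.23) and the pair was separated at -1.43 ± 0.27. Expected counts of the whole gene, which are not divided by length, were also lower for Rab8a (3733, 17151 and 7333) than for Rab8b (8914, 33274 and 15601). Rab8a-202 held 334, 7540 and 949 of the Rab8a counts and Rab8a-201 held 3398, 9608 and 6380. The second quantification, made from the reads without the alignments of the first, gave Rab8a-202 a similar share of 65.5%, 90.8% and 76.7%.

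The boundary at which the 2 Rab8a transcripts part is shown because it is the sequence that tells them apart. It is chr8:72175900-72175959 on the plus strand of mm10, 60 bases from GENCODE M21, with the exon shared by both in lower case and the first 30 bases that only Rab8a-202 keeps in capitals.
Rab8a-202: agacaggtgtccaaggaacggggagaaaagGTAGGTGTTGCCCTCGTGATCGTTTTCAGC
Of the 542 exonic bases of Rab8a-202, 414 (76.4%) are also exonic in Rab8a-201 and 128 are its own, at 72175930 to 72176057. Rab8a-202 ends 7847 bases before the end of Rab8a-201. Reads from the 414 shared bases cannot be told apart between the transcripts, so the division between them is a model estimate. Rab8a-202 was the only leading transcript of a member at a mean of 1 TPM that is not annotated as protein coding.

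Of the 42 members at a mean of 1 TPM, 36 have 2 or more annotated transcripts. In 29 of the 36 the same transcript led in all 3 libraries, and in 13 it held at least 90% of the gene on average, as Rab5a-201 (99.9%) and Rab31-201 (99.5%) did. In 4 members replicate 2 was led by another transcript than replicates 1 and 3 (Rab7, Rab2b, Rab3d and Rab43), and in 3 by the second quantification as well. The other changes were in Rab22a, Rab6a and Rab40c. For Rab7, Rab7-205 was at 288, 239 and 331 TPM, while Rab7-201 was at 0, 639 and 1.36 TPM and Rab7-204 at 0, 182 and 0 TPM. The higher Rab7 level of replicate 2 was thus assigned to Rab7-201 and Rab7-204, and Rab7-205 was lowest there. Rab7-201 and Rab7-205 share the same 621 coding bases before the stop. Rab7-201 begins 25487 bases downstream of Rab7-205 in the genome and ends 834 bases before it. The second quantification divided them differently, giving Rab7-201 24.2%, 72.4% and 17.0% of the gene. For Rab6a, Rab6a-203 was at 15, 53.5 and 25.4 TPM and Rab6a-201 at 23.8, 19.3 and 16 TPM, so the leading transcript was Rab6a-201 in replicate 1 and Rab6a-203 in the others.

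**Figure D3:**
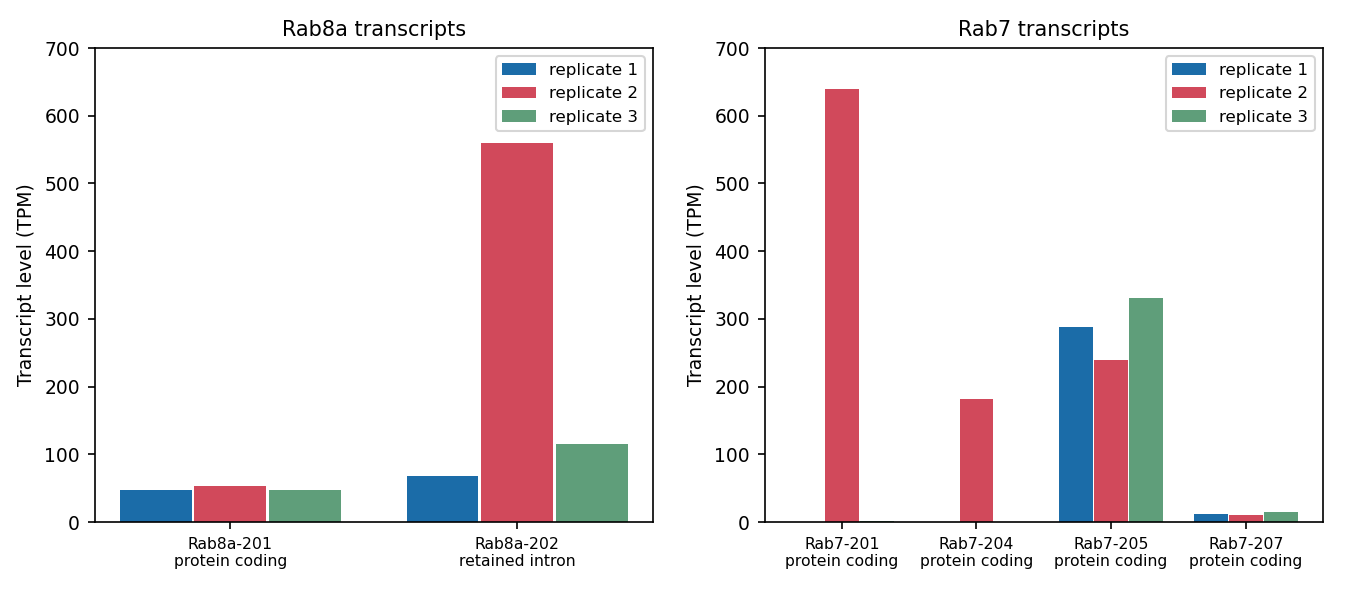
Transcript level in TPM of Rab8a (left) and Rab7 (right) in each library, for transcripts that reach 10 TPM in any library. Bars are single libraries and start at 0. Rab8a-201 and Rab7-205 are of like height in the 3 libraries, while Rab8a-202 reaches 560 TPM and Rab7-201 639 TPM in replicate 2.

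How steady the family was between libraries was asked next, from the TPM of the first quantification. Of the 42 members at a mean of 1 TPM, 26 were lowest in replicate 2, beside 58.5% of protein-coding genes at that level, and 12 were highest there, beside 27.3%. In 13 members the highest library was at least 2 times the lowest, beside 38.4% of such genes, and in all 13 replicate 2 was the extreme library. Rab7, Rab8a, Rab10, Rab2b and Rab39 were the 5 that were highest in replicate 2. Rab20, Rab1b, Rab4b, Rab24, Rab29, Rab40c, Rab19 and Rab34 were the 8 that were lowest there. The second quantification placed fewer of the 42 members lowest in replicate 2. Rab11b (57.0, 59.9 and 68.3 TPM), Rab31 (28.4, 31.2 and 50.8 TPM) and Rab29 (19.8, 20.0 and 30.8 TPM), for example, were lowest in replicate 1 in it. Rab20, Rab1b, Rab4b, Rab24, Rab40c, Rab19 and Rab34 stayed lowest in replicate 2. Between replicates 1 and 3 none of the 42 members differed by 2-fold or more in the first quantification, beside 4.4% of such genes. The median ratio of the higher to the lower of these libraries was 1.17 and the largest 1.99 (Rab39). In the second quantification Rab7b (85.6 and 176 TPM), Rab39 (0.678 and 1.73 TPM) and Rab27a (0.514 and 1.12 TPM) differed by over 2-fold between replicates 1 and 3. In bulk RNA fewer cells of a type and less RNA per cell cannot be told apart. The median coefficient of variation over 3 libraries was 26.1% for the 42 members, against 28.5% for protein-coding genes at a mean of 1 TPM.

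**Figure D4:**
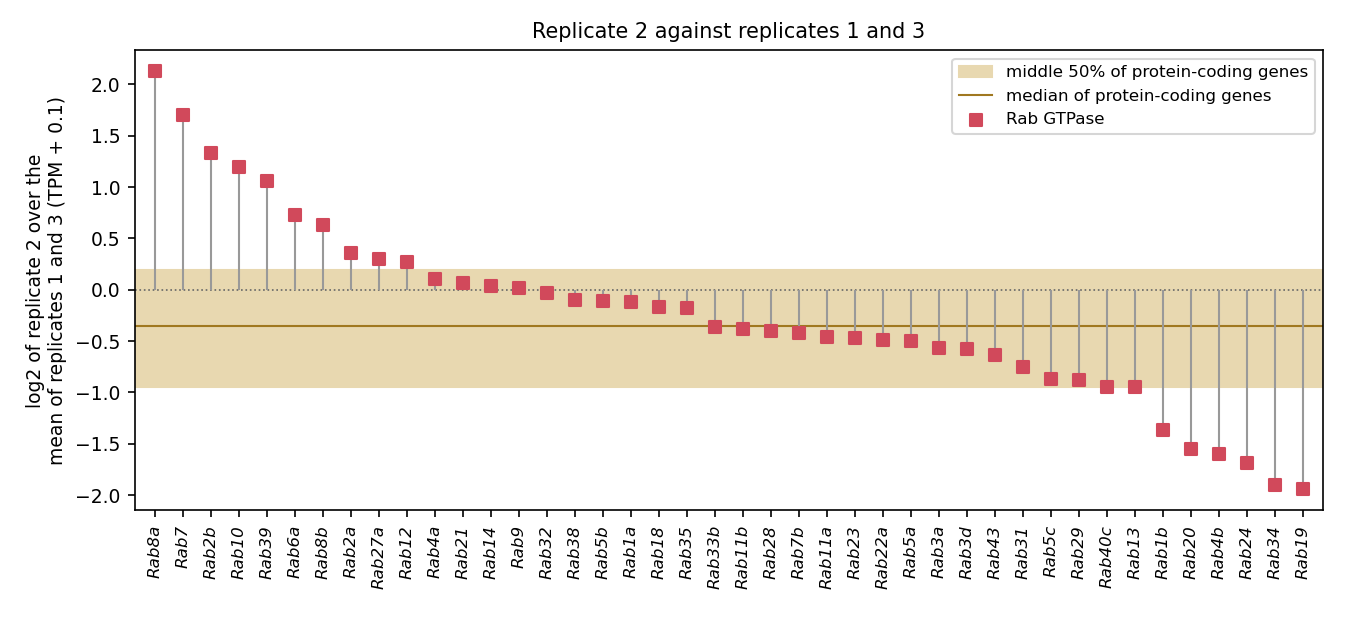
Log2 ratio of replicate 2 to the mean of replicates 1 and 3 (TPM + 0.1, first quantification) for the 42 Rab genes at a mean of 1 TPM, in descending order. The band is the middle 50% of the 10003 protein-coding genes at that level and the brown line their median of -0.35. Rab8a (2.13) and Rab7 (1.70) lie farthest above the band and Rab19 and Rab34 farthest under it.

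This spread was tested across all genes in a pair of ways. The first compared each gene with the counting noise of its reads, by a chi-square test of homogeneity with Benjamini-Hochberg adjustment. It called 42 of 45 members tested, beside 87.9% of the 11932 genes tested, and the 3 not called were Rab3a, Rab23 and Rab36. Without replicate 2 it called 28 of 45 members, beside 55% of genes, and Rab8a, Rab4b and Rab24 were among the 14 no longer called. The second compared the variance between libraries with that of genes of like abundance, by edgeR's quasi-likelihood fit with an F test. It called 0 of 45 members, beside 0.0% of the genes (0 of 11932), and the lowest adjusted p of a member was 0.933. At an unadjusted p under 0.05 it held 1 member, Rab2b, and 503 of all genes (4.22%). Dispersion outliers of DESeq2 numbered 17 genes and 0 members. Both shares of members were near those of all genes tested. These p-values measure only the spread between these 3 libraries.

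The level of a member also depends on how shared reads were divided. The first quantification was higher than the second by a median of 0.14 on the log2(TPM + 1) scale over all genes, and by 0.15 over the members. Over all genes the median was 0.42, -0.05 and 0.09 in replicates 1, 2 and 3, so the first was the higher mainly in replicate 1. Of 42 members tested with limma 0 differed at an adjusted p under 0.05 and a difference of at least 1, beside 1.66% of genes, and the lowest adjusted p of a member was 0.743. The first tables also give an interval for each TPM. The TPM lay outside it for 18 of 41, 11 of 40 and 14 of 42 members at 1 TPM or more in replicates 1, 2 and 3. For protein-coding genes at that level it did so in 24.6%, 10.5% and 13.3%, a smaller share than for the members in each library. At sequence level, 27 of the 42 members had under 5% of the 31-base words of their most abundant transcript in any other gene, and 7 had at least 20%. For Rab43 it was 90.3%, all in Gm45140, a gene annotated across it on the same strand (3.07 ± 1.72 TPM). For Rab4b it was 82.3%, all in Gm21983, a gene annotated across it at 0 TPM. For Rab24 it was 52.8%, in Prelid1, a gene on the opposite strand at 142 ± 51.8 TPM. The strandedness of the libraries is not given in the sources used here, so reads of Rab24 and Prelid1 over their overlap, and of Rab10 and its antisense gene Rab10os (14.4 ± 6.15 TPM), may not have been told apart. Rab2b shared 75.4%, mostly with Gm43766, Rab11b 40.6%, mostly with the processed pseudogene Rab11b-ps2 (3.92 ± 1.15 TPM), Rab20 24% and Rab33b 21.9%. Rab7 shared 19.5%, mostly with the pseudogene Rab7-ps1 (2.58 ± 0.93 TPM). Rab8b shared 6.17%, mostly with the pseudogene Gm20689, which was at 13.3, 95.9 and 0.92 TPM. The levels of these members may depend on how reads over the shared words were divided. The shares of words do not measure by how much.

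The proteins that load, switch off and extract Rabs were read from 5 lists of 115 genes. Of these, 90 were at 1 TPM or more in all 3 libraries, beside 42.9% of protein-coding genes. All 8 genes of prenylation and recycling reached it. Gdi2, the main extractor of Rabs from membranes, was at 296, 363 and 415 TPM, and Rabac1, which helps release Rabs from GDI, at 66.8, 9.23 and 65.4 TPM. Rabac1 was far lower in replicate 2 than in both others. Of 28 exchange factors 23 reached it, led by Ccz1, a subunit of the Rab7 exchange factor (81.0, 60.4 and 82.8 TPM), by Dennd1a of Rab35 (58.9, 77.7 and 57.4 TPM) and by Rin2 of Rab5 (69.9, 47.0 and 49.3 TPM). Of 30 GTPase-activating proteins 26 reached it. Tbc1d13, which acts on Rab35, was at 219, 81.5 and 219 TPM, Tbc1d10b at 65.2, 48.0 and 60.0 TPM and Tbc1d2b at 43.5, 46.9 and 36.7 TPM.

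Effectors, the proteins that bind Rabs in their GTP form, were read from the other lists. Of the endosomal and phagosomal effectors 22 of 24 were at 1 TPM or more in all libraries. Of the secretory and Golgi effectors 11 of 25 (44.0%) were, near the 42.9% of protein-coding genes. Ehd1, a membrane-remodelling ATPase of recycling endosomes, was at 508, 187 and 310 TPM, Ankfy1, an effector of Rab5, at 52.9, 59.5 and 58.5 TPM, and Vps41, the HOPS subunit for fusion with lysosomes, at 42.6, 51.0 and 44.8 TPM. The 2 that did not reach it in all libraries were Mical1 (2.96, 0.69 and 1.97 TPM) and Rab11fip4 (0.03, 0.01 and 0.07 TPM). Among secretory and Golgi effectors Myo5a, a myosin motor, was at 73.0, 132 and 93.3 TPM, Inpp5b, a phosphoinositide phosphatase, at 82.8, 74.2 and 54.0 TPM, and Uso1, the tether that binds Rab1, at 42.3, 33.7 and 37.9 TPM. Of the 100 list genes tested, the excess variance test called 0, beside 0.0% of the 11932 genes tested. The counting noise test called 92 of the 100, near the 87.9% of all genes tested.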

How the data were processed

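Levels come from 3 polyA+ RNA-seq libraries in 1 group, with 2 quantifications of each against GENCODE M21 on mm10, as deposited notes state. The tool names and the aligner were not given in the sources used here. The first tables, made from transcriptome alignments, hold, per the file headers, the deposited expected counts, TPM and, for transcripts, the percent of the gene; the authors' posterior mean TPM and TPM bounds there were set against the TPM. The second tables, made from reads, were deposited by the authors with estimated counts and TPM. Entries that name no annotated gene (0.0464% to 0.0875% of counts) were left out of tests. The second quantification was summed to genes.

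The members and lists were chosen with earlier results of these data known. All members were accounted for, those at a mean of 1 TPM or in a pair were named with values, and the 3 highest genes of each other list, apart from 1 that is not reported here. Expected counts were rounded for count tests. Counting noise was tested by chi-square on library sizes scaled by TMM (trimmed mean of M-values), and excess variance by edgeR 4.0.16 (intercept fit, one-sided F test against the trended prior), both after filterByExpr. Quantifications were compared by limma 3.58.1 on within-library differences of log2(TPM + 1). DESeq2 1.42.0 served as an alternative. P-values were adjusted by Benjamini-Hochberg over all genes tested, threshold 0.05. The tests were run on simulated data first. Limits for 0 counts are 3 counts per library. Coding ends are those of the longest complete coding sequence. Alternatives were other thresholds, pseudocounts, CPM, size factors, no filter, the second quantification and leaving out each replicate.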

Additional observations from a re-analysis of the deposited data

How the results depend on the processing

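The number of members detected stayed between 33 (at 5 TPM) and 42 (at 0.5 TPM), the counts of members called, the summed level and the detected regulators kept within 1.5 times or 1 SD under every alternative, and 0 members were called for excess variance or between quantifications under any. Medians of log2 levels did move. With the second quantification they were 3.77 for all members, 5.67 for early and 5.68 for late endosomes. With CPM, which is not per length, they were 7.20 for early endosomes, 5.50 for the endoplasmic reticulum and Golgi, 1.52 for secretion and 1.22 for other members. With a pseudocount of 0.1 they were 2.81 for recycling endosomes, 0.23 for secretion and -0.45 for other members, which changed sign. Over members at a mean of 1 TPM only they were 5.72 for all, 5.73 for recycling endosomes, 6.14 for late endosomes, 6.10 for the endoplasmic reticulum and Golgi, and 3.23 for both secretion and other members; fewer low genes enter this median. Without each replicate in turn the median of all members was 3.61 to 4.26 and that of the endoplasmic reticulum and Golgi 4.48 to 5.09, lowest without replicate 2 in both. Over all genes, excess variance calls were 0 in the main test, 64 with no filter, 17 as DESeq2 outliers and 7 to 20 without 1 replicate. Calls over counting noise were 10491, and 6695 to 9696 without 1 replicate, lowest without replicate 2. Calls between quantifications were 169, against 258 with a pseudocount of 0.1 and 0 with no filter. Separated pairs numbered 13, against 10 to 15 without 1 replicate. The ratio of Rab8a to Rab8b changed sign with CPM (-1.10) and with protein-coding transcripts only (-1.43, an alternative chosen after seeing the data). That of Rab22a to Rab31 was -0.01 and changed sign with CPM (0.23), the second quantification (0.20) and without replicate 3 (0.30), with -0.23 as the lowest value without 1 replicate. With CPM, Rab5c over Rab5b (0.80), Rab11a over Rab11b (0.32) and Rab27a over Rab27b (3.61) lost the call, as did Rab39 over Rab39b with a pseudocount of 1 and without replicate 3. The pairs Rab2a and Rab2b (2.57) and Rab5c and Rab5b (1.61) also lost it without replicate 3. Apart from what a setting's construction shows, the cause was not tested. No paired analysis was possible because the libraries form 1 group, so that replicate numbers pair no samples; quantifications and paralogues were compared within a library.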
